A study of Mus musculus with 21 samples.

Results

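Transcripts of 8 secreted proteins that make or restrain bone morphogenetic protein (BMP) signals were followed through every mouse epidermal population of the series. The genes were chosen by name: the ligands Bmp2, Bmp4, Bmp6 and Bmp7, and the secreted antagonists Nog, Grem1, Fst and Sostdc1. All 8 were found, each at a single locus, among 43776 gene names in each of the 3 tables.

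BMP ligands are secreted dimers that bind type I and type II receptor kinases, which phosphorylate Smad1, Smad5 and Smad9 and, through them, raise target genes such as Id1, Id2 and Id3. Secreted antagonists bind the ligands outside the cell and keep them from the receptors. In mouse skin, BMP signalling is known for holding stem cells of the hair follicle bulge at rest, and antagonists made around the follicle are known to release them into growth.

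RNA was sequenced from 21 libraries of mouse keratinocytes in 7 groups of 3. Of these, 9 were wild-type libraries, with no age or sex used here. They came from hair follicle stem cells (HFSCs) purified by flow sorting, cultured HFSCs, and total epidermal cells. The cultured HFSCs are titled 3C-HFSCs, so they are 3C cells too. The other 12 all came from 3C cultures, in which total epidermal cells grow for 10 to 14 days, with no genotype in their labels. These were CD34+ and CD34neg sort fractions, both positive for alpha-6 integrin, and cultures given dorsomorphin or cyclopamine for 48 h at doses that the labels do not state. CD34 and alpha-6 integrin are surface proteins used to sort bulge stem cells. Dorsomorphin blocks the kinases of BMP type I receptors, and also AMP-activated protein kinase. Cyclopamine blocks Smoothened, the signal transducer of the Hedgehog pathway. The stated questions were which cells grow in 3C cultures, and which early changes come with a drug that depletes HFSCs and with a drug that enriches them. Whether the 3 libraries of each group derive from separate animals or cultures is not in the labels, so p-values may measure technical spread alone.

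The first table compares 3 populations that it names HFSC, CD34a6 and bulk. Bulk is read here as total epidermal cells. The labels leave unsaid whether the HFSC or the CD34a6 column is the one with freshly sorted cells, so the column names are kept and neither is taken as a statement on culture. All 4 bulge markers examined were highest in the CD34a6 column. In the HFSC column 3 of them were below bulk in unscaled FPKM, Cd34 only narrowly. No call is given for these levels, and the gap for Cd34 is too small to give it a side. Cd34 was at 8.70 FPKM in the HFSC column, 327 FPKM in the CD34a6 column and 10.6 FPKM in bulk. The bulge transcription factor Lhx2 was at 2.06, 270.3 and 7.91 FPKM in the same order, and Sox9, the marker that was above bulk in the HFSC column, at 55.2, 180.1 and 20.4 FPKM. The stem cell receptor Lgr5 was at 0.299 FPKM in the HFSC column, 70.5 FPKM in the CD34a6 column and 1.88 FPKM in bulk. In the second table, Cd34 was at 38.7 FPKM in the CD34+ fraction and 2.26 FPKM in the CD34neg fraction.

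FPKM counts sequenced fragments scaled by transcript length and by the library's total, so levels of different genes are on a common scale per length. Each table gives 1 FPKM per gene and population, estimated by the authors over the libraries of that population, so values of single libraries and their spread could not be shown. Calls of higher or lower are the authors' own, made at an adjusted p under 0.05 in their deposited table. Beside each log2 fold stands an implied standard error (SE), the fold divided by the authors' test statistic, which holds only if that statistic is the fold over its SE. Each table had its own normalisation, so levels are compared only inside a table. Summed FPKM ranged from 406723 in the CD34a6 column to 917078 in bulk, with 482175 in the HFSC column. Dividing by these sums would add 1.17 to every log2 fold of CD34a6 over bulk, 0.93 to HFSC over bulk and -0.25 to HFSC over CD34a6. It would add 0.41 to CD34+ over CD34neg and 0.11 to dorsomorphin over cyclopamine. Without such scaling, and with 1 FPKM added to both levels, the median log2 fold over all tested genes lay between -0.11 and 0.00 in the 5 comparisons.

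On GRCm38, the build in the submitters' processing notes, the tables place Bmp2 at chr2:133552159-133562885, Bmp7 at chr2:172868012-172940321 and Grem1 at chr2:113746164-113758646. Nog lies at chr11:89300638-89302332 and Sostdc1 at chr12:36314169-36318452. These 5 loci overlap their protein-coding gene and no second annotated gene. The Bmp4 locus, chr14:46379414-46390669, also covers Gm15217 and the antisense gene Gm15222, and each of these has a line of its own listed at 0 FPKM in all 7 populations. The Bmp6 locus, chr13:38345716-38499728, holds the antisense gene 4930579J19Rik, and the Fst locus, chr13:114452262-114458730, overlaps the antisense gene Gm47040 by 68 bases; neither was analysed here. The library kit keeps strand, but the sources used here do not state whether the counting did, so reads from these antisense genes may be part of the Bmp4, Bmp6 and Fst values.

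Promoter sequences are shown for Bmp4, Bmp6 and Grem1, the 3 of 8 members that matched an entry in the RefSeq promoter table for GRCm38.p6. Their levels differ in pattern: Bmp4 had its highest level in bulk, and Bmp6 and Grem1 had theirs in the CD34a6 column. Each runs 5′ to 3′ on the gene's strand, with 250 bases before the start given by that entry and 50 after it. GENCODE vM21 starts Bmp6 further upstream, at chr13:38345107, so the whole Bmp6 window lies inside the gene as annotated there. They lie at chr14:46390620-46390919 on the minus strand for Bmp4, at chr13:38345466-38345765 on the plus strand for Bmp6 and at chr2:113758599-113758898 on the minus strand for Grem1. Capitals mark CAGAC or its reverse complement GTCTG, the short Smad-binding element, and GGCGCC, the GC-rich element that BMP Smads bind.
Bmp4: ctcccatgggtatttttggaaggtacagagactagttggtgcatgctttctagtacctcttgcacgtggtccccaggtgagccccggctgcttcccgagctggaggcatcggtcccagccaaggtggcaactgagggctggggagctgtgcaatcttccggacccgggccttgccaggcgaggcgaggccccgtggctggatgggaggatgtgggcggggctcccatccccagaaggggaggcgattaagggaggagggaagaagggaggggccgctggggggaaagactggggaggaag
Bmp6: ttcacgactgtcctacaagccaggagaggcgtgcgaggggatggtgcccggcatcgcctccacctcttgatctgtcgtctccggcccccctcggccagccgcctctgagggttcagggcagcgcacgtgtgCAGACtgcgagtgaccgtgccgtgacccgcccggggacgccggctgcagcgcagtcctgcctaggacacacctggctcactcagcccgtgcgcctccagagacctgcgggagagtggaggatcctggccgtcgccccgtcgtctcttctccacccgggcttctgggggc
Grem1: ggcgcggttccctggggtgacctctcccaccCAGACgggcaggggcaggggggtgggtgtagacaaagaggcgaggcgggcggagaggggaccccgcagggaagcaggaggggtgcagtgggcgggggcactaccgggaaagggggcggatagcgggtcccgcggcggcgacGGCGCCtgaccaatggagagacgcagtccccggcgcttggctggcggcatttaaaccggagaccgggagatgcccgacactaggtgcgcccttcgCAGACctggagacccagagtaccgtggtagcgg

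CAGAC, searched on both strands, had no match in the Bmp4 window, 1 in the Bmp6 window and 2 in the Grem1 window, and 49.6% of all 32851 promoters in the table held it. GGCGCC had 1 match, in the Grem1 window, against 11.9% of promoters with it. The E-box CANNTG had 3 matches in Bmp4, 2 in Bmp6 and none in Grem1, with 72.3% of promoters holding it. The Grem1 and Bmp6 windows were rich in CpG, with 28 and 27 CpG against a median of 7 over all promoters, and the Bmp4 window held 12. These matches describe letters in a window and are not evidence that a factor binds there.

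**Figure D1:**
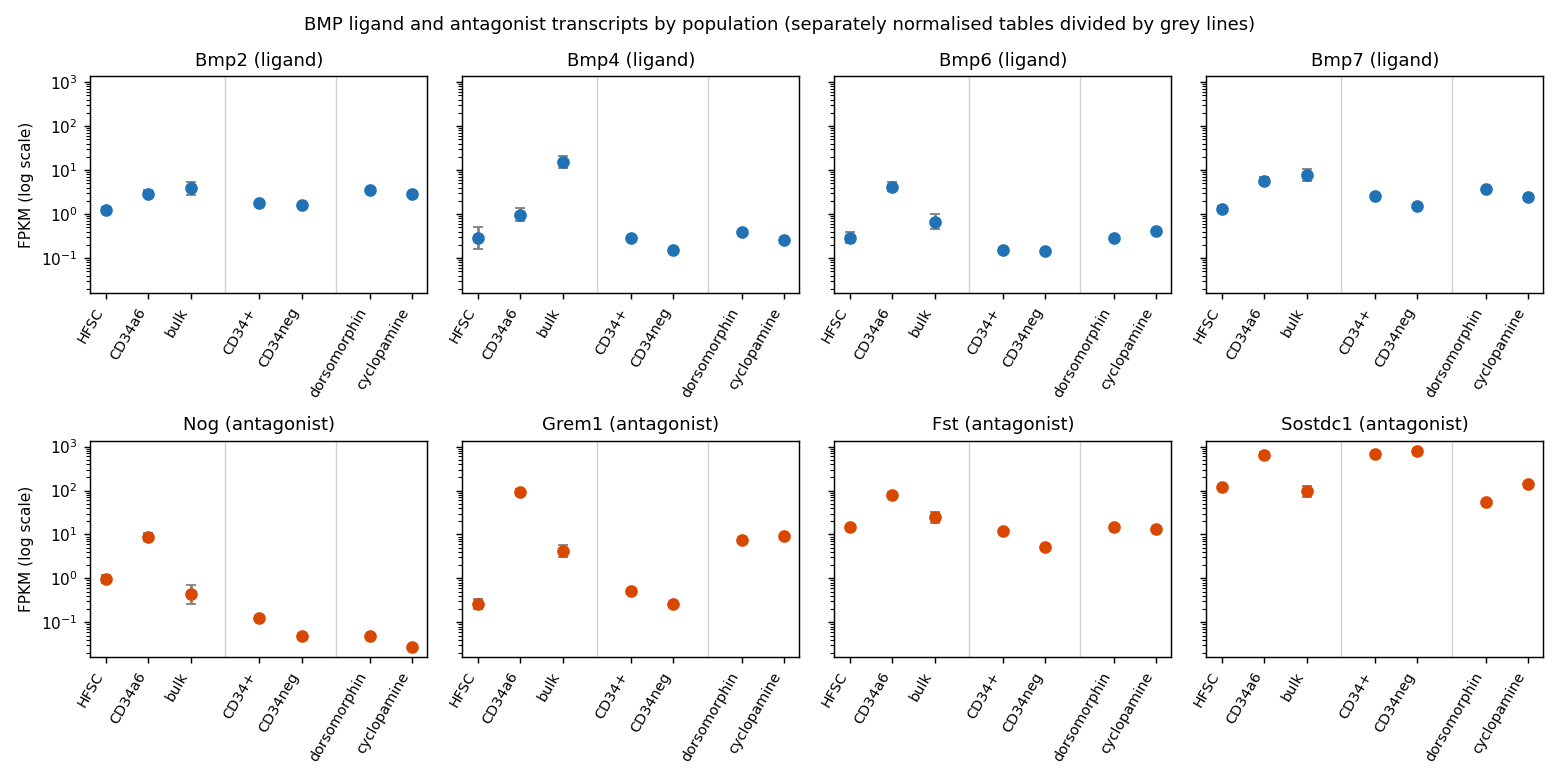
Each panel plots 1 gene's FPKM on a log axis in the 7 populations, with grey lines between the separately normalised tables. Grey bars in the first table span 1 implied SD of log2 FPKM either way; the other tables allow none. Bmp4 stands highest in bulk, and Bmp6, Nog, Grem1, Fst and Sostdc1 stand highest in the CD34a6 column.

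Sostdc1 was the most abundant member in all 3 populations of the first table. Fst came next in the HFSC column and in bulk, while in the CD34a6 column Grem1 stood above Fst. Sostdc1, a secreted protein that binds BMPs and also restrains Wnt signalling through its co-receptor, had 119 FPKM in the HFSC column, 648 FPKM in the CD34a6 column and 95.4 FPKM in bulk. That placed it above 96.0%, 99.6% and 92.1% of the tested genes of each population. Follistatin (Fst), which binds activins tightly and some BMPs more weakly, had 15.1 FPKM in the HFSC column, 80.7 FPKM in the CD34a6 column and 24.7 FPKM in bulk. For both genes the CD34a6 column was the highest.

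Gremlin 1 (Grem1), an antagonist of the DAN family that binds BMP2, BMP4 and BMP7, had 0.262 FPKM in the HFSC column, 92.4 FPKM in the CD34a6 column and 4.24 FPKM in bulk. It was the member with the widest range: in the CD34a6 column it stood above 95.6% of tested genes, and in the HFSC column above 12.4%. Noggin (Nog), which covers the receptor-binding faces of BMP ligands, had 0.981 FPKM in the HFSC column, 8.66 FPKM in the CD34a6 column and 0.434 FPKM in bulk.

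The ligands were lower than Sostdc1 and Fst, and none passed 16 FPKM in any population. Bmp4 had 0.282 FPKM in the HFSC column, 0.981 FPKM in the CD34a6 column and 15.3 FPKM in bulk, so bulk held by far the most. Bmp2, its closest relative by sequence, had 1.23 FPKM in the HFSC column, 2.94 FPKM in the CD34a6 column and 3.86 FPKM in bulk. Bmp6 was highest in the CD34a6 column. It had 0.293 FPKM in the HFSC column, 4.24 FPKM in the CD34a6 column and 0.674 FPKM in bulk. Bmp7, of the same subfamily as Bmp6, had 1.31 FPKM in the HFSC column, 5.75 FPKM in the CD34a6 column and 7.66 FPKM in bulk. For Bmp2 and Bmp7 the CD34a6 column and bulk were neighbours that did not pass the test, and only the HFSC column lay apart below them.

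**Figure D2:**
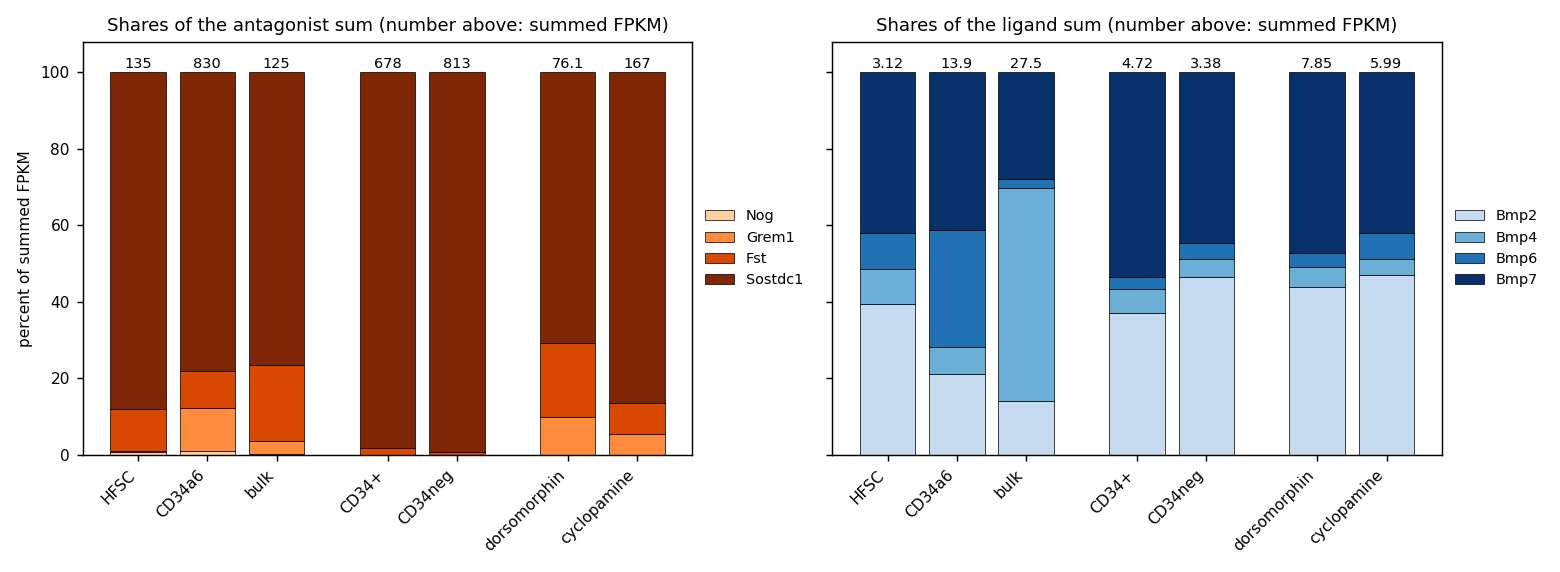
Stacked bars give each gene's share of the summed FPKM of the 4 antagonists (left) and the 4 ligands (right) in each population, with the sum in FPKM above the bar. Sostdc1 makes up 70.7% to 99.3% of every antagonist sum, and Bmp4 makes up 9.04% of the ligand sum in the HFSC column and 55.7% in bulk.

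Summed over the 4 antagonists and the 4 ligands, the balance of transcripts differed most between bulk and the other columns of its table. The antagonist sum was 135 FPKM in the HFSC column, 830.2 FPKM in the CD34a6 column and 125 FPKM in bulk. The ligand sum was 3.12, 13.9 and 27.5 FPKM in the same order, which gave 43.4, 59.7 and 4.53 FPKM of antagonist per FPKM of ligand. Without Sostdc1, these ratios were 5.24 in the HFSC column, 13.1 in the CD34a6 column and 1.07 in bulk. Sostdc1 held 87.9%, 78.1% and 76.4% of the antagonist sum. Grem1 held 0.194% of it in the HFSC column, 11.1% in the CD34a6 column and 3.40% in bulk. Bmp4 held 9.04% of the ligand sum in the HFSC column, 7.05% in the CD34a6 column and 55.7% in bulk, and Bmp6 held 9.41%, 30.5% and 2.45% in the same order. These sums are descriptions of transcript levels, not of protein or of BMP activity, and no test was made of them.

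In the CD34a6 column against bulk, all 4 antagonists were higher, Bmp6 was higher, Bmp4 was lower, and Bmp2 and Bmp7 were not called. All 8 members were tested, and 5 were called higher and 1 lower. Of all 14441 tested genes, 22.0% were higher and 24.3% lower, 46.3% in either direction. The median log2 fold of the 8 members, with 1 FPKM added to both levels, was 1.66, against 0.00 for all tested genes. In bulk samples such as these, fewer cells of a type and less RNA per cell cannot be told apart.

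Grem1 had 92.4 FPKM in the CD34a6 column and 4.24 FPKM in bulk, a log2 fold of 4.45 ± 0.49 (implied SE; 21.8-fold), with an adjusted p of 0.000212 per the authors' deposited table. That is the smallest adjusted p there, since the deposited p-values stop at 5e-05, and the other 5 called members reached it too. Nog was higher by a log2 fold of 4.32 ± 0.79 in the authors' deposited table (19.9-fold), Sostdc1 by 2.77 ± 0.47 (6.80-fold) and Fst by 1.71 ± 0.47 (3.26-fold). These sizes were not tested against each other, and with 1 FPKM added Nog and Sostdc1 both had a log2 fold of 2.75. Bmp6 was the only ligand called higher, by a log2 fold of 2.66 ± 0.67 in the authors' deposited table (6.30-fold). Bmp4 was lower by a log2 fold of -3.97 ± 0.67 in the authors' deposited table, or 15.6-fold. Bmp2 and Bmp7 had log2 folds of -0.39 ± 0.55 and -0.41 ± 0.51 in the authors' deposited table, with adjusted p of 0.275 and 0.209. Their 95% intervals ran from -1.48 to 0.69 and from -1.42 to 0.59, so neither sign can be given. With FPKM scaled to equal sums, the log2 folds of Bmp2 and Bmp7 (1 FPKM added) turned to 0.66 and 0.69.

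In the HFSC column against bulk, all 4 ligands were lower, and so were Grem1 and Fst (the Fst fold turned positive with FPKM scaled to equal sums), while Nog and Sostdc1 were not called. Of 8 members tested, 0 were called higher and 6 lower in the authors' Cuffdiff-format table, and at an unadjusted p under 0.05 Nog alone was higher. Of all 14035 tested genes, 19.0% were higher and 24.7% lower, 43.7% in either direction. The median log2 fold of the members, with 1 FPKM added, was -0.90, against -0.11 for all tested genes. This comparison and the previous one share the bulk libraries.

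Bmp4 had 0.282 FPKM in the HFSC column and 15.3 FPKM in bulk, a log2 fold of -5.77 ± 0.95 in the authors' deposited table (54.4-fold lower; adjusted p = 0.000212). Grem1 was lower by a log2 fold of -4.01 ± 0.57 in the authors' deposited table (16.1-fold), Bmp7 by -2.55 ± 0.49 (5.84-fold) and Bmp2 by -1.65 ± 0.52 (3.14-fold), all with that adjusted p. Grem1 thus lay below bulk in the HFSC column and above bulk in the CD34a6 column, each past the threshold. Bmp6 and Fst were closer calls. Bmp6 had a log2 fold of -1.20 ± 0.72 in the authors' deposited table (adjusted p = 0.0177), and Fst one of -0.71 ± 0.45 (adjusted p = 0.0431). Read against a normal distribution instead, the same statistics gave Bmp6 an adjusted p of 0.263 and Fst one of 0.293, and with FPKM scaled to equal sums the Fst log2 fold (1 FPKM added) was 0.21. Nog had 0.981 FPKM in the HFSC column and 0.434 FPKM in bulk, with a log2 fold of 1.18 ± 0.80 and an adjusted p of 0.0551 per the authors' deposited table. Sostdc1 had 119 FPKM in the HFSC column and 95.4 FPKM in bulk, with a log2 fold of 0.32 ± 0.43 and an adjusted p of 0.238 per the authors' deposited table. Its 95% interval ran from -0.53 to 1.17.

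Between the HFSC and the CD34a6 columns, all 8 members were lower in the HFSC column. Of all 13962 tested genes, 29.0% were lower and 25.2% higher in the HFSC column, 54.2% in either direction. The median log2 fold of the members, with 1 FPKM added, was -2.15, against -0.07 for all tested genes. Grem1 had the largest fold of the members in any comparison.

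Grem1 had 0.262 FPKM in the HFSC column and 92.4 FPKM in the CD34a6 column, a log2 fold of -8.46 ± 0.41 in the authors' deposited table (352-fold lower; adjusted p = 0.000212). Nog followed among the antagonists with a log2 fold of -3.14 ± 0.43 in the authors' deposited table (8.83-fold), then Sostdc1 with -2.45 ± 0.26 (5.45-fold) and Fst with -2.42 ± 0.25 (5.35-fold). The Sostdc1 and Fst folds lay within their SE of each other. Among the ligands, Bmp6 had a log2 fold of -3.86 ± 0.52 in the authors' deposited table (14.5-fold), Bmp7 one of -2.13 ± 0.35 (4.38-fold) and Bmp2 one of -1.26 ± 0.37 (2.39-fold). All 7 reached an adjusted p of 0.000212. Bmp4, at 0.282 FPKM in the HFSC column and 0.981 FPKM in the CD34a6 column, was the weakest call, with a log2 fold of -1.80 ± 0.96 and an adjusted p of 0.0106 per the authors' deposited table. The normal reading of its statistic gave an adjusted p of 0.144, and its 95% interval ran from -3.68 to 0.08.

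**Figure D3:**
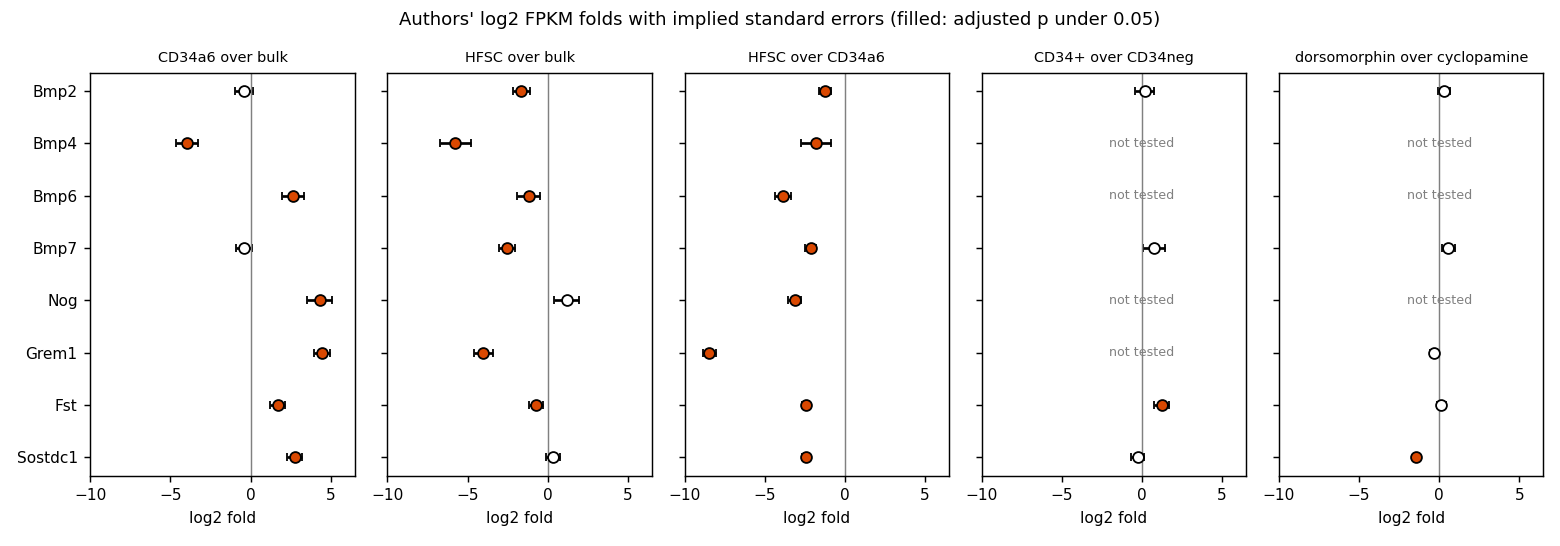
Each panel gives the authors' log2 FPKM fold of the 8 genes in 1 comparison, with bars of 1 implied SE either way; filled points have an adjusted p under 0.05 and open points do not. Antagonists lie right of 0 for CD34a6 over bulk, and every gene lies left of 0 for HFSC over CD34a6, down to -8.46 for Grem1.

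In the sort fractions of 3C cultures, Fst was higher in CD34+ than in CD34neg cells, and the other 3 members tested were not called. It had 12.2 FPKM in the CD34+ fraction and 5.21 FPKM in the CD34neg fraction, a log2 fold of 1.23 ± 0.47 in the authors' deposited table (2.34-fold; adjusted p = 0.0138). The authors tested 4 of the 8 members here, of which 1 was higher and 0 were lower in their Cuffdiff-format table, also 0 lower at an unadjusted p under 0.05. Of all 11370 tested genes, 2.08% were higher and 4.71% lower, 6.79% in either direction. The median log2 fold of the 4 members, with 1 FPKM added, was 0.29, against -0.07 for all tested genes. The Fst call did not hold under the normal reading of its statistic, with an adjusted p of 0.451, nor at an adjusted p under 0.01.

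Sostdc1 was very high in both fractions, with 665 FPKM in the CD34+ fraction and 807 FPKM in the CD34neg fraction, above 99.1% and 98.9% of tested genes. Its log2 fold was -0.28 ± 0.40 with an adjusted p of 0.441 per the authors' deposited table, and its 95% interval ran from -1.07 to 0.51. With FPKM scaled to equal sums its log2 fold (1 FPKM added) was 0.13. Bmp7 had 2.52 FPKM in the CD34+ fraction and 1.50 FPKM in the CD34neg fraction, with a log2 fold of 0.75 ± 0.67 and an adjusted p of 0.220 per the authors' deposited table. Bmp2 had 1.75 and 1.57 FPKM in the CD34+ and the CD34neg fraction, with a log2 fold of 0.15 ± 0.60 and an adjusted p of 0.812 per the authors' deposited table. The other 4 members were under 1 FPKM in both fractions and were not tested by the authors. Bmp4 had 0.294 FPKM in the CD34+ fraction and 0.154 FPKM in the CD34neg fraction, and Grem1 had 0.515 and 0.261 FPKM. Bmp6 had 0.152 FPKM in the CD34+ fraction and 0.145 FPKM in the CD34neg fraction, and Nog had 0.126 and 0.0494 FPKM.

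The antagonist sum was 678 FPKM in the CD34+ fraction and 813 FPKM in the CD34neg fraction, of which Sostdc1 made up 98.1% and 99.3%. The ligand sum was 4.72 FPKM in the CD34+ fraction and 3.38 FPKM in the CD34neg fraction. Antagonist per ligand was therefore 144 in the CD34+ fraction and 241 in the CD34neg fraction with Sostdc1, and 2.72 and 1.63 without it, so the order of the fractions turned with that gene.

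With dorsomorphin against cyclopamine, Sostdc1 was lower and no other member was called. It had 53.8 FPKM with dorsomorphin and 144 FPKM with cyclopamine, a log2 fold of -1.42 ± 0.24 in the authors' deposited table (2.68-fold lower; adjusted p = 0.00479). Of 5 members tested by the authors, 0 were higher and 1 lower in their Cuffdiff-format table, and at an unadjusted p under 0.05 Bmp7 was higher. Of all 11505 tested genes, 1.26% were higher and 1.31% lower, 2.57% in either direction. The median log2 fold of the 5 members, with 1 FPKM added, was 0.13, against -0.02 for all tested genes. Both arms carry a drug and an untreated culture was not analysed here, so which arm moved cannot be told apart.

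Grem1 had 7.57 FPKM with dorsomorphin and 9.31 FPKM with cyclopamine, with a log2 fold of -0.30 ± 0.28 and an adjusted p of 0.448 per the authors' deposited table. Fst had 14.7 FPKM with dorsomorphin and 13.4 FPKM with cyclopamine, with a log2 fold of 0.13 ± 0.28 and an adjusted p of 0.841 per the authors' deposited table. The 95% intervals ran from -0.86 to 0.26 for Grem1 and from -0.42 to 0.69 for Fst, and neither overlapped the interval of Sostdc1, from -1.89 to -0.96. Among the ligands, Bmp7 had 3.71 FPKM with dorsomorphin and 2.51 FPKM with cyclopamine, with a log2 fold of 0.56 ± 0.41 and an adjusted p of 0.226 per the authors' deposited table. Bmp2 had 3.45 FPKM with dorsomorphin and 2.81 FPKM with cyclopamine, with a log2 fold of 0.30 ± 0.39 and an adjusted p of 0.658 per the authors' deposited table. Bmp4 (0.402 FPKM with dorsomorphin and 0.262 FPKM with cyclopamine), Bmp6 (0.290 and 0.408 FPKM) and Nog (0.0497 and 0.0271 FPKM) were not tested by the authors. The antagonist sum was 76.1 FPKM with dorsomorphin and 167 FPKM with cyclopamine, and the ligand sum was 7.85 and 5.99 FPKM. Antagonist per ligand was 9.69 with dorsomorphin and 27.9 with cyclopamine, and without Sostdc1 it was 2.84 and 3.79.

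The rest of the pathway was read from a list of 46 genes, of which 45 had a line of their own; Gata3 shares its line with 9230102O04Rik and was left out. In the CD34a6 column against bulk, 23 of 35 tested genes were higher and 2 lower, against 22.0% higher and 24.3% lower over all tested genes, with 5 of 6 Smads and 5 of 7 targets among the higher. The median log2 fold of the list, with 1 FPKM added, was 1.03, against 0.00 for all tested genes. Id2, an inhibitor of basic helix-loop-helix factors and a BMP target, had 150 FPKM in the CD34a6 column and 15.3 FPKM in bulk (log2 fold 3.29 ± 0.50, adjusted p = 0.000212 in the authors' deposited table). Id3 had 222 FPKM in the CD34a6 column and 43.3 FPKM in bulk (log2 fold 2.36 ± 0.56), and Id1 had 87.9 and 51.1 FPKM (0.78 ± 0.49, adjusted p = 0.0321), from the authors' deposited table. The Id1 call did not hold at an adjusted p under 0.01, and its statistic was too small for a call under the normal reading. The ligand Gdf10 (73.3 FPKM in the CD34a6 column and 1.88 FPKM in bulk) and Fstl1, a secreted follistatin-like protein (51.8 and 2.83 FPKM), had the largest rises with Id2 when 1 FPKM was added to both levels. On the authors' deposited folds, 3 Smads also exceeded Id2: Smad9, which BMP receptors phosphorylate, with 5.13 ± 0.69 in log2 fold, and the inhibitory Smad6 and Smad7 with 3.70 ± 0.78 and 3.67 ± 0.86. The 2 lower genes were Bmp3 (0.185 FPKM in the CD34a6 column and 2.62 FPKM in bulk) and Htra1, a secreted protease (9.54 and 162 FPKM). The Htra1 call rests on a log2 fold of -4.09 ± 3.67 in the authors' deposited table (adjusted p = 0.00658), an implied SE nearly as large as the fold.

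In the HFSC column against bulk, 11 of 34 tested list genes were higher and 7 lower, against 19.0% higher and 24.7% lower over all tested genes, so the share of lower genes was near that of all genes. The list median was 0.37 in log2 fold with 1 FPKM added, against -0.11 for all tested genes. With 1 FPKM added, the largest rises were Inhba, the subunit of activin A (16.6 FPKM in the HFSC column and 0.107 FPKM in bulk), the type I receptor Bmpr1b (4.41 and 0.215 FPKM) and Bmp1 (44.2 and 10.0 FPKM), a metalloprotease listed with the ligands by its name. On the same scale the largest falls were Id4 (2.64 FPKM in the HFSC column and 20.7 FPKM in bulk), the homeobox gene Dlx3 (3.67 and 16.1 FPKM) and the DAN-family antagonist Nbl1 (8.61 and 29.5 FPKM). On the authors' deposited folds, Bambi, a pseudoreceptor that inhibits BMP receptors (-3.33 ± 0.79 in log2 fold), Fstl1 (-2.73 ± 1.56) and Bmp3 (-2.31 ± 0.56) had larger falls than Dlx3 (-2.13 ± 0.47) and Nbl1 (-1.77 ± 0.50). Id2 fell to 9.06 FPKM in the HFSC column, against 15.3 FPKM in bulk (log2 fold -0.76 ± 0.48, adjusted p = 0.0384 in the authors' deposited table), but its log2 fold (1 FPKM added) was 0.16 with FPKM scaled to equal sums. It was the only called gene of the list, over the 5 comparisons, whose fold turned with that scaling. Id1 (46.3 FPKM in the HFSC column and 51.1 FPKM in bulk) and Id3 (53.1 and 43.3 FPKM) had adjusted p of 0.520 and 0.284 per the authors' deposited table.

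In the HFSC column against the CD34a6 column, 8 of 37 tested list genes were higher and 18 lower, against 25.2% higher and 29.0% lower over all tested genes, so the share of higher genes was near that of all genes. Among the lower were 6 of 7 targets and 5 of 6 Smads, while the ubiquitin ligase Smurf1 was higher. The list's median log2 fold, with 1 FPKM added, was -0.48, against -0.07 for all tested genes. The largest falls on that scale were those of Fstl1, Id4 and Id2. Fstl1 fell to 0.428 FPKM in the HFSC column, against 51.8 FPKM in the CD34a6 column, Id4 to 2.64 against 78.3 FPKM, and Id2 to 9.06 against 150 FPKM. Id1 (46.3 FPKM in the HFSC column and 87.9 FPKM in the CD34a6 column) and Id3 (53.1 and 222 FPKM) fell too, with log2 folds of -0.92 ± 0.26 and -2.06 ± 0.27 and an adjusted p of 0.000212 per the authors' deposited table. The largest rises with 1 FPKM added were Htra1 (551 FPKM in the HFSC column and 9.54 FPKM in the CD34a6 column), Inhba (16.6 and 0.0940 FPKM) and Bmpr1b (4.41 and 0.0343 FPKM). The Htra1 call again had a large implied SE, with a log2 fold of 5.85 ± 3.32 in the authors' deposited table (adjusted p = 0.000212). Gdf10, at 0.0245 FPKM in the HFSC column and 73.3 FPKM in the CD34a6 column, did not pass, with an adjusted p of 0.0856 per the authors' deposited table. Its log2 fold there was -11.5 ± 1.72, so the deposited p was large although the fold was several times its implied SE.

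In the CD34+ against the CD34neg fraction, 2 of 24 tested list genes were higher and 0 lower, against 2.08% higher and 4.71% lower over all tested genes. They were Id2, with 17.1 FPKM in the CD34+ fraction and 7.63 FPKM in the CD34neg fraction (log2 fold 1.16 ± 0.50, adjusted p = 0.0240), and Nbl1, with 11.0 and 4.75 FPKM (1.21 ± 0.55, adjusted p = 0.0179), in the authors' deposited table. Neither call held at an adjusted p under 0.01. The normal reading of the statistic called 39 loci in this comparison instead of 772. The statistics of Id2 and Nbl1 were too small to keep their calls under it. Id1 had 20.4 and 16.7 FPKM and Id3 13.2 and 9.00 FPKM in the CD34+ and the CD34neg fraction, with adjusted p of 0.514 and 0.252 per the authors' deposited table.

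With dorsomorphin against cyclopamine, 1 of 25 tested list genes was higher and 3 were lower, against 1.26% higher and 1.31% lower over all tested genes. The lower genes were Id1 (2.50 FPKM with dorsomorphin and 11.9 FPKM with cyclopamine), Id3 (2.44 and 11.0 FPKM) and Id2 (1.72 and 4.24 FPKM). Their log2 folds in the authors' deposited table were -2.25 ± 0.58, -2.17 ± 0.60 and -1.30 ± 0.62, with adjusted p of 0.00479, 0.00479 and 0.0417. Sostdc1 was thus lower in the same arm as the targets Id1, Id2 and Id3. Bmp3 was the higher gene, with 6.24 FPKM with dorsomorphin and 3.17 FPKM with cyclopamine (log2 fold 0.98 ± 0.30, adjusted p = 0.00479 in the authors' deposited table). The Id2 call did not hold at an adjusted p under 0.01. Over all tested loci, the normal reading of the statistic called 15 loci instead of 296. Sostdc1 kept its call under that reading. The statistics of Id1, Id2, Id3 and Bmp3 were too small to keep theirs.

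The receptors Bmpr1a and Bmpr2 were called in none of the 5 comparisons in the authors' Cuffdiff-format tables. Bmpr1a had 39.3 FPKM in the HFSC column, 36.5 FPKM in the CD34a6 column and 27.1 FPKM in bulk, and Bmpr2 had 15.2, 16.3 and 14.5 FPKM. In the sort fractions Bmpr1a had 88.3 FPKM in CD34+ and 87.4 FPKM in CD34neg cells, and Bmpr2 had 71.4 and 47.5 FPKM. Bmpr1a had 62.9 FPKM with dorsomorphin and 49.7 FPKM with cyclopamine, and Bmpr2 had 67.1 and 61.6 FPKM. Their adjusted p in the authors' deposited tables ran from 0.117 for Bmpr1a in the HFSC column against bulk to 0.966 for Bmpr1a between the sort fractions.

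**Figure D4:**
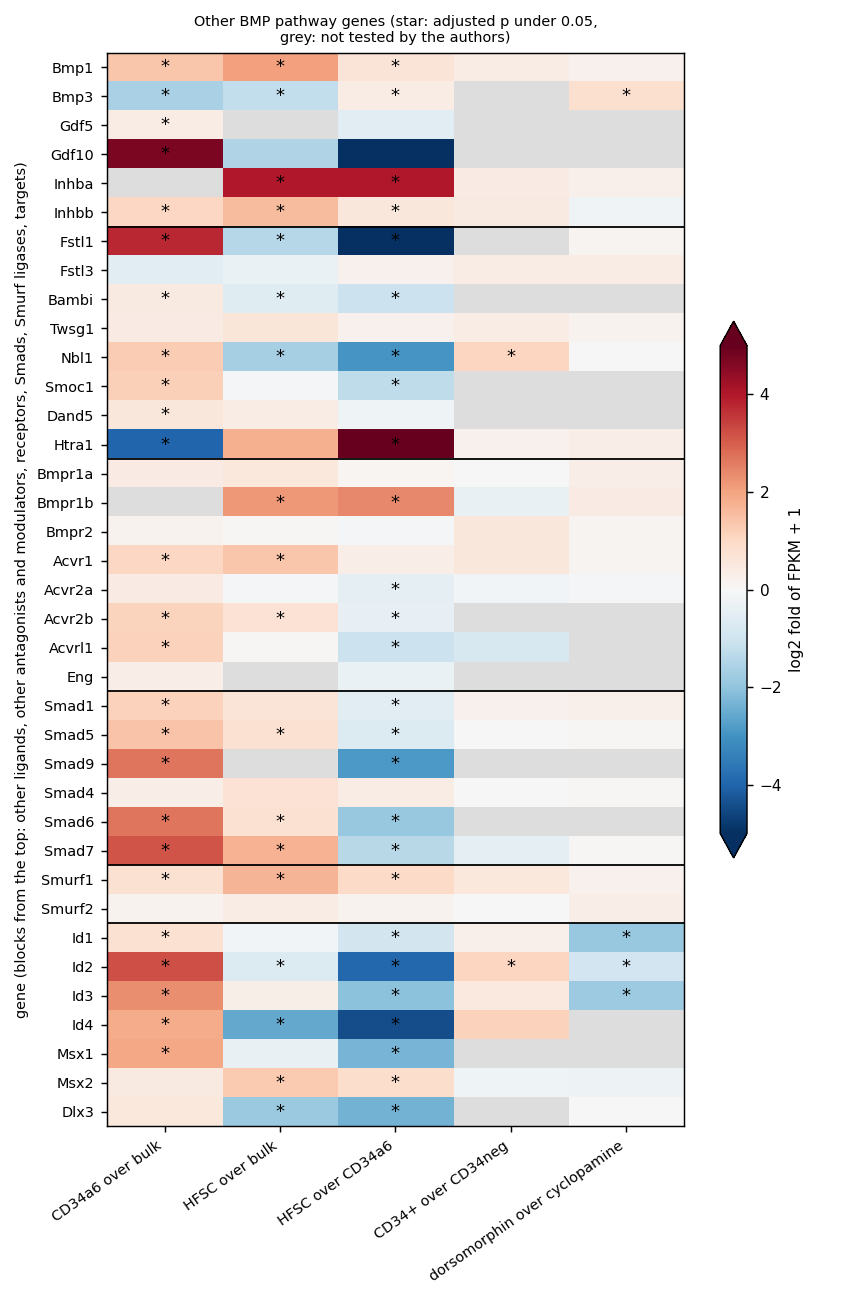
Colour gives the log2 fold, with 1 FPKM added to both levels, of each other BMP pathway gene (rows, grouped by role) in the 5 comparisons (columns); stars mark an adjusted p under 0.05 and grey marks pairs the authors did not test. Id1, Id2 and Id3 are starred and lower for HFSC over CD34a6 and for dorsomorphin over cyclopamine, and starred and higher for CD34a6 over bulk.

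For each member, the gene with the most similar pattern was found by the Euclidean distance over 4 log2 folds, with 1 FPKM added: CD34a6 over bulk, HFSC over bulk, CD34+ over CD34neg and dorsomorphin over cyclopamine. The search covered 9503 genes, and the distance says nothing of shared control. The members were not held to the minimum of 1 FPKM set for those genes. Bmp4, Bmp6 and Nog were under 1 FPKM throughout the 3C tables, and Grem1 was in the sort fractions. Adding 1 FPKM keeps such folds small, so the distances of these members rest largely on their other folds. Among the ligands, the nearest genes were Fam149b (0.241) and Gorasp1 (0.241) for Bmp2, Rps6ka6 (0.270) and Hs3st6 (0.363) for Bmp4, Per3 (0.130) and Dmxl2 (0.152) for Bmp6, and Lrrc61 (0.267) and Mmd (0.462) for Bmp7. Among the antagonists they were Tnrc6c (0.146) and Map3k12 (0.289) for Nog and Ltbp4 (0.255) and Prpf40b (0.266) for Fst. Grem1 and Sostdc1 had the most distant neighbours of the 8. The nearest to Grem1 were Igfbp4 (0.615) and Smim1 (1.05), and the nearest to Sostdc1 were Tex9 (0.597) and Neat1 (0.840).

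Markers of other cell types moved with some of these results. Of 8 fibroblast and dermal papilla markers, the sum was 0.616 FPKM in the HFSC column, 35.3 FPKM in the CD34a6 column and 22.0 FPKM in bulk, highest in the CD34a6 column, as were Bmp6 and all 4 antagonists. The single markers did not share that order. Col1a1 had 22.4 FPKM in the CD34a6 column and 1.21 FPKM in bulk, Col1a2 had 8.08 and 0.825 FPKM, Dcn 2.58 and 1.99 FPKM and Pdgfra 0.0410 and 0.0337 FPKM. The other 4 were higher in bulk: Thy1 had 2.24 FPKM in the CD34a6 column and 17.6 FPKM in bulk, Corin had 0.00912 and 0.0381 FPKM, and Col3a1 and Lum were at 0 in the CD34a6 column and at 0.281 and 0.0110 FPKM in bulk. Of 4 immune markers, the sum was 1.10 FPKM in the HFSC column, 4.23 FPKM in the CD34a6 column and 187 FPKM in bulk, where Bmp4 was also highest and all 4 reached 1 FPKM. Of 4 melanocyte markers, the sum was 0.525, 8.02 and 5.70 FPKM in the same order, with 0, 1 and 2 markers at 1 FPKM or more. The part of these cells in the results on Bmp4, Bmp6 and the antagonists was not tested. In the 3C tables, the 8 fibroblast markers summed to 0.604 FPKM in the CD34+ fraction and 0.308 FPKM in the CD34neg fraction, with 4 of the 8 at 0 in each. They summed to 5.49 FPKM with dorsomorphin and 2.43 FPKM with cyclopamine, against 53.8 and 144 FPKM of Sostdc1. Immune and melanocyte markers each summed to under 2 FPKM in all 4 populations of the 3C tables, and endothelial markers to under 1 FPKM in all 7. Of the keratinocyte markers, 6 of 6 were above 1 FPKM in all 7 populations, with sums from 8235 to 18236 FPKM. Single keratinocyte markers differed in order. Krt15 had 37.9 FPKM in the HFSC column, 9923 FPKM in the CD34a6 column and 4791 FPKM in bulk. Krt14 had 8296, 1257 and 3420 FPKM in the same order.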

How the data were processed

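Per the labels, libraries were made with a directional kit. The authors deposited 3 tables, in the Cuffdiff layout per the file headers, with 1 FPKM per locus and population. Per the same file headers they also hold the authors' log2 fold, a test statistic (a score with no stated formula), a p-value and a q-value. Per the submitters' processing notes, the 3-population table involved Cuffdiff, Cufflinks 2.2.1, StringTie 1.1.0, HISAT 0.1.6 and FastQC 0.11.3, though the labels name TopHat2. For the other 12 libraries they list DESeq2 1.8.1, featureCounts (Subread 1.4.2), TopHat2 2.0.13, cutadapt 1.5 and FastQC 0.11.2, so the tool behind those p-values is not settled. No count model was run here.

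Each FPKM was assigned to the population named on its own line, exact duplicate lines were dropped, and folds were turned to the direction printed. For HFSC against CD34a6, the HFSC FPKM was taken from the same locus's line against bulk. The column 3C_HFSC was read as the CD34+ fraction. A Benjamini-Hochberg adjustment over the tested loci of a table matched its q-values to within 5.29e-07. Every call comes from the authors' adjusted p, under 0.05, without a new test. Implied errors are the fold over the statistic, and 95% intervals are 1.96 of them either way. Solving the 3 pairs for 1 variance per population gave positive variances at 12734 of 12734 loci, with median implied SD of log2 FPKM of 0.208 in HFSC, 0.332 in CD34a6 and 0.567 in bulk. Depth is unknown, so no counting interval is given. Loci were compared with GENCODE vM21, and starts are printed counting from 1. Python 3.11.15, pandas 2.3.3, numpy 2.4.6 and scipy 1.17.1 were used. Only the Benjamini-Hochberg adjustment and the solving for 1 variance per population were checked on simulated data. The check of the variances returns the values put in by its construction.

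The genes and lists were chosen with earlier results of these data known. Named genes were all 8 members, Bmpr1a, Bmpr2, Id1, Id2 and Id3, the 3 largest called changes of the pathway list, with 1 FPKM added, in each direction and comparison, and the 2 nearest patterns per member. The neighbour search took symbols on 1 locus with at least 1 FPKM in a population of each table, without predicted genes. Cell type markers, Smad6, Smad7, Smad9, Smurf1, Bambi, Gdf10 in HFSC against CD34a6, Fstl1 and Bmp3 in HFSC against bulk, and genes on shared loci were named outside that rule. Alternatives were another threshold, adjustment per pair, a minimum of 1 FPKM, loci with a second gene left out, pseudocounts of 0.1 and 0.01 FPKM, rescaled and centred folds, and a normal reading of the statistic, which was added after the data were seen.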

Additional observations from a re-analysis of the deposited data

How the results depend on the processing

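The number of called members stayed within 1.5 times its value in 24 of 30 recounts. The median log2 fold was reversed in 0 of 25 recounts, but its size changed. With a pseudocount of 0.01 FPKM it went from 1.66 to 2.17 for CD34a6 against bulk and from -0.90 to -1.41 for HFSC against bulk. With FPKM rescaled to equal sums it went from 0.29 to 0.65 for CD34+ against CD34neg and from 0.13 to 0.24 for the drugs. Leaving out Bmp4, Bmp6 and Fst, whose loci cover a second gene, brought the calls to 3 of 6 for CD34a6 against bulk, 3 of 6 for HFSC against bulk, 5 of 8 for HFSC against CD34a6 and 0 of 1 for CD34+ against CD34neg, because fewer genes were counted. The CD34+ call of Fst was also lost (0 called) at an adjusted p under 0.01, and 0 were called with the normal reading of the statistic. Over all loci that reading, chosen after seeing the data, called 2942 instead of 6689 loci for CD34a6 against bulk, 2785 instead of 6137 for HFSC against bulk, 4453 instead of 7568 for HFSC against CD34a6, 39 instead of 772 for CD34+ against CD34neg and 15 instead of 296 for the drugs; the cause was not tested. Rescaling FPKM to equal sums moved the members' median log2 fold to 2.78 for CD34a6 against bulk, -0.33 for HFSC against bulk and -2.66 for HFSC against CD34a6, by its construction. It reversed 4 single folds: Bmp2 (0.66) and Bmp7 (0.69) in CD34a6 against bulk, Fst (0.21) in HFSC against bulk and Sostdc1 (0.13) in CD34+ against CD34neg. Keeping members of at least 1 FPKM moved the median for HFSC against bulk to -1.52. The other 95 recomputed folds kept their direction. No paired analysis was possible because the tables hold no values per library, and for the same reason no replicate could be left out. Unknown depth limits what can be said of members under 1 FPKM.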
